A study of Homo sapiens with 6 samples.

Results

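Very long clusters of nuclease-protected RNA were examined among places recovered with Rbfox1/LASR complexes and listed as intronic. They span 150 nt or more on 1 strand. Whether each cluster lies wholly within an intron was not checked. A cluster is a listed stretch of the genome with sequenced RNA, and its length is its end minus its start in the deposited lists. The members were chosen by this measured length: every different row of 150 nt or more that named a single gene was taken. It found 2306 long clusters in the F125A list and 2010 in the WT list, 4316 of 548352 single-gene clusters in all. They were set against the remaining clusters of the same genes, 74302 in the F125A list and 137076 in the WT list.

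The study purified FLAG-tagged Rbfox1 with LASR from HEK293 Flp-In Rbfox2 KO#7 cells, a human embryonic kidney line with 1 transgene insertion site, of which this knockout is 1 line. The F125A group (2 libraries) carried Rbfox1(F125A), in which a phenylalanine of the RNA recognition motif is replaced, and the WT group (3 libraries) carried Rbfox1(WT). The Rbfox2 knockout was common to both groups and to the 1 control library without a transgene, which was not analysed here. Each group had 1 list, so no value has a replicate error, no test of the conditions could be made, read depth is unknown, and all intervals (95%) cover counting error only.

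Rbfox proteins bind the pentamer GCAUG in introns and change the splicing of nearby exons. In the nucleus they sit in LASR, a large assembly of splicing regulators that holds further RNA-binding proteins, among them hnRNP M, hnRNP H, hnRNP C and Matrin 3. RNA that such an assembly covers is protected from nuclease, and reads of protected fragments can be grouped into clusters. The rule by which the clusters of these lists were drawn is not given, and some of them touch.

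The label of a very long protected cluster holds for the listed length and not for single RNA fragments. The cDNA had been size-selected for inserts of 20 to 80 nt, and an insert within that range does not cover 150 nt. With such inserts a long cluster would be a stretch of overlapping or adjoining fragments. The lists hold no reads, so this was not tested. All single-gene clusters had a median of 64 nt in the F125A list and 60 nt in the WT list. The long ones had a median of 164 nt (quartiles 156 and 179) with F125A and 162 nt (155 and 176) with WT. Only 223 F125A and 148 WT clusters reached 200 nt, and 18 and 13 reached 250 nt. The threshold cuts a smooth slope: exactly 150 nt was the length of 115 F125A and 96 WT clusters just inside it, and 149 nt that of 107 F125A and 111 WT clusters just outside it.

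Long clusters of the F125A list lay on 6 intronic microRNA hairpins, and no long cluster of the WT list lay on any microRNA. These hairpins were picked by the length of their F125A clusters, so the shorter WT clusters there are a description, and at the share of long clusters among all (1.25% with F125A and 0.553% with WT) long clusters are rare in either list. A microRNA is cut from a hairpin in a longer transcript by Drosha and then Dicer, and bases 2 to 8 of the mature arm, the seed, pair with target RNAs. The hairpins are shown because the cluster ends can be read against them. They come from RefSeq (GRCh38.p14), written 5′ to 3′, with capitals for the bases inside the first WT cluster met in that direction.
MIR106B, chr7:100093993-100094074, minus strand: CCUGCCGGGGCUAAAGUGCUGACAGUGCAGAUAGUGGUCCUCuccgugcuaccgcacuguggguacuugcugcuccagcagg
MIR101-2, chr9:4850297-4850375, plus strand: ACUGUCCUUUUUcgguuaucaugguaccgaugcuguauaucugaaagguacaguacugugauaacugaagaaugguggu
MIR504, chrX:138667711-138667793, minus strand: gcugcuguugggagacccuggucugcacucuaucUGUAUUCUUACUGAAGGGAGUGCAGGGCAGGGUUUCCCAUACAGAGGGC
MIR454, chr17:59137758-59137872, minus strand: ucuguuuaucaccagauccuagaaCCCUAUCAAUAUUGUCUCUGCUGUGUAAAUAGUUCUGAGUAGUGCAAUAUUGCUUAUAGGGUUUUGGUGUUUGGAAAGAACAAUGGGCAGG
MIRLET7G, chr3:52268278-52268361, minus strand: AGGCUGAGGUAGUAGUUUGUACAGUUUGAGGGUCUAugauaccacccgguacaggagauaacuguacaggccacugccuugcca
MIR1307, chr10:103394253-103394401, minus strand: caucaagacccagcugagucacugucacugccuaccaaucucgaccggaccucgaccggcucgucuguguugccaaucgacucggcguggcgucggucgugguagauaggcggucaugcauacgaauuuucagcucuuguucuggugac

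The mature arms of these hairpins follow with the seed in capitals, so that the arm ends named below can be found in the hairpins. The 12 arms of the 6 hairpins carry 12 different seeds, so they form no shared seed group.
hsa-miR-106b-5p: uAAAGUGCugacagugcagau
hsa-miR-106b-3p: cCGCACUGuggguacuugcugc
hsa-miR-101-2-5p: uCGGUUAUcaugguaccgaugc
hsa-miR-101-3p: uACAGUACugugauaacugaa
hsa-miR-504-5p: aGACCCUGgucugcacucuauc
hsa-miR-504-3p: gGGAGUGCagggcaggguuuc
hsa-miR-454-5p: aCCCUAUCaauauugucucugc
hsa-miR-454-3p: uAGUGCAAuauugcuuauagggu
hsa-let-7g-5p: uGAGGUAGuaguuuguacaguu
hsa-let-7g-3p: cUGUACAGgccacugccuugc
hsa-miR-1307-5p: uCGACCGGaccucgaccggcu
hsa-miR-1307-3p: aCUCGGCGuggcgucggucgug

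At MIR106B, in an intron of the replication helicase gene MCM7, 1 F125A cluster of 154 nt (100093952 to 100094105) covered the whole 82-nt hairpin. The WT list held the same place as 2 adjoining clusters of 65 and 75 nt, whose shared border lay at hairpin positions 42 and 43, between the arms. MIR101-2, in RCL1, was alike: 1 F125A cluster of 165 nt (4850255 to 4850419) against 2 adjoining WT clusters of 64 and 111 nt. There the WT border fell after the first base of hsa-miR-101-2-5p, at hairpin position 12. So at both hairpins the outer ends of the lists were within 10 nt of each other, and the lists differed in whether an internal border was drawn.

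At MIR504, in an intron of FGF13, which encodes a fibroblast growth factor family protein, the F125A cluster was 160 nt long and held both arms. The WT cluster was 80 nt long and began 1 nt after the last base of hsa-miR-504-5p, so it held the 3p arm alone. At MIR454, in SKA2, a gene for a spindle attachment protein, the F125A cluster of 183 nt began at the first base of hsa-miR-454-5p and a second F125A cluster of 37 nt adjoined it on the other side. The WT cluster there (141 nt) began 1 nt inside the same arm. MIRLET7G, in WDR82, had 152 and 96 nt clusters with F125A and 103 and 83 nt clusters with WT, in both lists 1 on each arm with a gap between them. MIR1307, in ATP5MK, was covered by 1 F125A cluster of 154 nt and by no WT cluster.

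**Figure D1:**
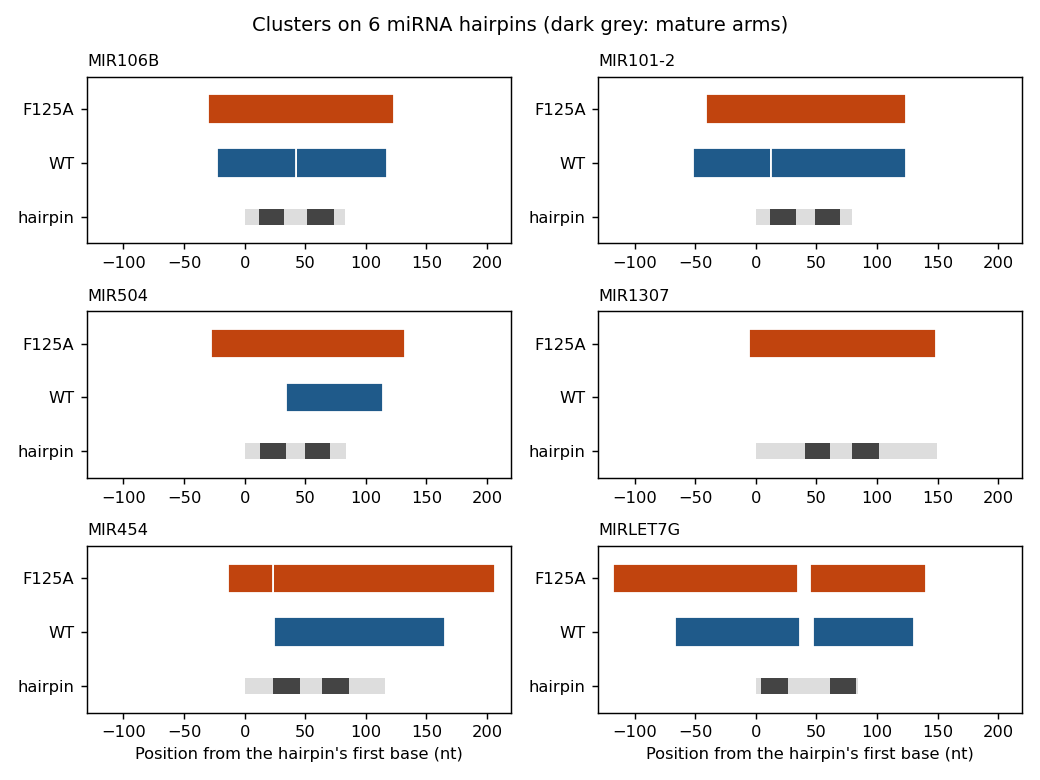
Clusters on 6 microRNA hairpins, drawn by position in nt from the first base of the hairpin (x axis), with F125A clusters above WT clusters and the hairpin (light grey) with its mature arms (dark grey) at the bottom. F125A clusters run unbroken over MIR106B and MIR101-2, where the WT list has 2 adjoining clusters, and no WT cluster lies on MIR1307.

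Clusters on annotated small RNAs were few in both lists, so these values rest on small numbers. In the F125A list 127 clusters overlapped 88 microRNA genes, 6 of them long (4.72%, exact interval 1.75 to 10.0%), and in the WT list 121 overlapped 83 microRNA genes, none long (upper bound 3.00%), the longest having 144 nt. Of snoRNA clusters, 2 of 64 with F125A and 0 of 72 with WT were long. The 2 lay on SNORA19 in EIF3A, a translation initiation factor gene, and on SNORD70B in NOP58, a gene for a core snoRNP protein. By midpoint, 0.0784% of all F125A and 0.0396% of all WT clusters lay in a small RNA gene. Of the long clusters, 6 of 2306 with F125A (0.260%, 0.0955 to 0.566%) and 0 of 2010 with WT (upper bound 0.183%) did. These 6 differ from the 6 microRNA clusters above. The long clusters on MIRLET7G and SNORD70B have their midpoints outside, and that on SNORA19, taken on either strand, is counted. Within genes, the F125A odds ratio of long over remaining clusters was 3.46 (1.21 to 9.90), and 3.07 (0.645 to 14.6) against remaining clusters of at least 100 nt. Odds ratios given here are Mantel-Haenszel estimates stratified by gene, which treat clusters as independent.

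Long clusters took up 3.10% of the clustered sequence in the F125A list and 1.45% in the WT list. They made up 1.25% of F125A clusters (exact interval 1.20 to 1.30%) and 0.553% of WT clusters (0.529 to 0.578%), a ratio of 2.25. Computed within genes, the odds ratio of a long cluster, F125A over WT, was 2.13. The ratio changed with how clusters were divided. With touching clusters joined, 2.94% of F125A and 2.08% of WT stretches were 150 nt or longer. Unlike the other shares here, these stretches include clusters naming several genes. With clusters closer than 50 nt merged, 6.39% of F125A stretches and 6.50% of WT stretches were 150 nt or longer. The length used for these shares is the length that chose the members, so they are given as a description. Between chromosomes other than Y the share ranged from 0.827% (chromosome 11) to 1.70% (chromosome 21) with F125A and from 0.333% (chromosome 16) to 1.10% (chromosome 21) with WT.

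Whether the other list had RNA at the same place was scored at the midpoint of each cluster, 1 position whatever the length. Long F125A clusters had such a partner less often than other clusters of their genes: 1390 of 2306, or 60.3% (58.3 to 62.3%), against 85.3% (85.0 to 85.5%) of the remaining ones, and 83.2% of all F125A clusters. Long WT clusters had one more often: 1154 of 2010, or 57.4% (55.2 to 59.6%), against 44.1% (43.8 to 44.3%) of the remaining ones, and 43.0% of all WT clusters. The within-gene odds ratio was 0.304 (0.277 to 0.333) with F125A and 1.70 (1.55 to 1.87) with WT. Against remaining clusters of at least 100 nt the odds ratio was 0.571 (0.511 to 0.639) with F125A and 1.09 (0.975 to 1.21) with WT, of which the second no longer excludes 1. With clusters closer than 50 nt merged the ratio was 0.538 (0.512 to 0.564) with F125A and 1.156 (1.122 to 1.191) with WT. The WT direction also turned with row order in the list: by bands of rows, the partner share of long against remaining WT clusters was 74.8% against 69.6% in the first 10% of rows, 66.0% against 70.7% in the next 10%, 52.8% against 67.8% in the 10% after it, 39.7% against 53.0% in the 20% that follow, and 24.8% against 23.2% in the last 50%.

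The partner share changed with length in both lists. With F125A it was 83.65% for clusters of 16 to 39 nt, 87.2% for 40 to 59 nt, 74.0% for 100 to 119 nt and 60.5% for 150 to 179 nt. With WT it was 31.9%, 39.3%, 51.7% and 55.9% in the same bands. From 40 nt up to these lengths it was thus lower in longer clusters with F125A and higher in longer clusters with WT. At 180 to 199 nt it was 56.36% with F125A and 61.05% with WT. At 200 nt or more, 144 of 223 F125A clusters (64.6%, 57.9 to 70.8%) and 100 of 148 WT clusters (67.6%, 59.4 to 75.0%) had a partner, and the intervals overlapped. The F125A list has 184975 single-gene clusters and the WT list 363377, so clusters of these lists had unequal chances of a partner.

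**Figure D2:**
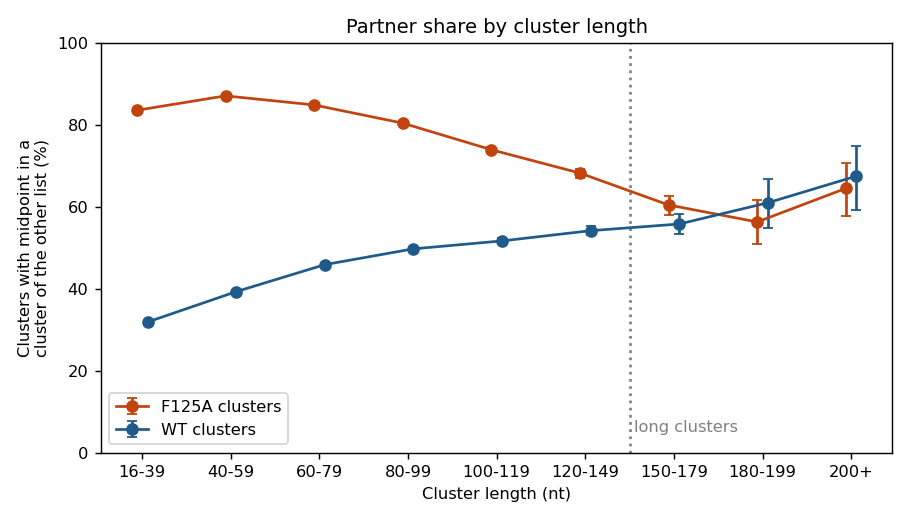
Share of clusters (y axis, percent) whose midpoint lies in a cluster of the other list, by cluster length in nt (x axis), with exact 95% intervals as bars. F125A falls to 60.5% and WT climbs to 55.9% at 150 to 179 nt, the first band of long clusters.

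Most long clusters had no long partner, but they overlapped one more often than the remaining clusters did. An overlap here is at least 1 nt, so its chance grows with cluster length, which chose the members. The shares are therefore a description. Of the long F125A clusters, 307 (13.3%, 12.0 to 14.8%) overlapped a WT cluster that was itself 150 nt or longer, against 0.989% of the remaining ones, and 673 (29.2%) overlapped no WT cluster, against 12.6%. Of the long WT clusters, 307 (15.3%, 13.7 to 16.9%) overlapped a long F125A cluster, against 0.714% of the remaining ones, and 691 (34.4%) overlapped none, against 54.1%. Where there was an overlap, the longest partner had a median of 108 nt for long F125A clusters and 112 nt for long WT clusters. Several clusters of the other list lay under 502 long F125A clusters (21.8%, 20.1 to 23.5%), against 7.996% of the remaining ones, and under 264 long WT clusters (13.1%, 11.7 to 14.7%), against 2.54%, which a longer cluster can reach by its length alone.

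Joining clusters that touch changed these counts. With clusters that touch (0 nt apart) joined in the other list, 594 long F125A clusters (25.8%, 24.0 to 27.6%) met a WT stretch of at least 150 nt, against 307 before joining. For long WT clusters the count was 449 (22.3%, 20.5 to 24.2%). Joining also made 2885 F125A and 5109 WT stretches of 150 nt or more out of shorter clusters alone, more than the long clusters themselves. The joined stretches include clusters naming several genes, which the long clusters do not. The RANBP1 cluster, the longest with F125A, is an example: its 331 nt (chr22:20123032-20123362) in this gene for a Ran-binding protein were covered to 100% by 2 WT clusters, the longer of 185 nt.

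Of the 10 longest F125A clusters, 3 had no WT cluster on them. They lay in ZZZ3, a zinc finger gene (305 nt, chr1:77633371-77633675), in EP400, a chromatin remodeller gene (299 nt, chr12:132025395-132025693), and in INO80, another chromatin remodeller gene (282 nt, chr15:41096306-41096587). Others lay in RANBP1, CERS4 (295 nt), COL18A1 (292 nt), FSCN2 (287 nt), SYK (276 nt) and STX2 (274 nt), with 1 to 4 WT clusters on each of these. The 10 longest WT clusters ran from 260 nt in TMEM181 to 322 nt in FAM171A1 (chr10:15229421-15229742), with DOCK1 (306 nt), HDGFL2 (301 nt), NSUN6 (278 nt), GRID1 (274 nt), SEPTIN9 (274 nt), GPR173 (271 nt), FZR1 (269 nt) and HIVEP3 (264 nt) between. Those in NSUN6 and FZR1 had no F125A cluster on them.

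For 25 long clusters, 20 with F125A and 5 with WT, some sequence was at hand, because they reach into RefSeq's 300-base windows around annotated gene starts. The 4 below show an overlap with the other list that is complete, partial, absent and partial. Capitals mark bases inside the longest cluster of the other list, and each piece is written 5′ to 3′ on the strand of the cluster (GRCh38.p14).
ERC1, F125A cluster of 188 nt, piece chr12:1236661-1236831, plus strand: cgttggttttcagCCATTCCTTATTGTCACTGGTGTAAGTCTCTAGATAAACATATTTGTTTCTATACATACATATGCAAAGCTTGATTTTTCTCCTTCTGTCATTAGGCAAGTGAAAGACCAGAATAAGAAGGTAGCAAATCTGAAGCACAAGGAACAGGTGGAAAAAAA
HOXA3, F125A cluster of 197 nt, piece chr7:27130713-27130909, minus strand: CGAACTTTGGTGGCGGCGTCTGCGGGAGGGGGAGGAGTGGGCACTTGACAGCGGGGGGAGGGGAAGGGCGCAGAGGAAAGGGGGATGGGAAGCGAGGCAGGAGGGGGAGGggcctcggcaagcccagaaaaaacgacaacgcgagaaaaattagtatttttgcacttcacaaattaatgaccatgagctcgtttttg
SLC1A5, F125A cluster of 181 nt, piece chr19:46787304-46787484, minus strand: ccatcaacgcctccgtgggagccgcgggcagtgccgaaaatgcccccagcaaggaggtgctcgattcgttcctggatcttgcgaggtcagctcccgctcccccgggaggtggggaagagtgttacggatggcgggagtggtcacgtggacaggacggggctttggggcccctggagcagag
HNRNPH3, WT cluster of 160 nt, piece chr10:68333041-68333178, plus strand: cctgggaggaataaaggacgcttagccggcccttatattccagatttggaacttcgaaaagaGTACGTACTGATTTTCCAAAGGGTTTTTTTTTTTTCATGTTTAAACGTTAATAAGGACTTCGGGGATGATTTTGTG

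In ERC1, a gene for an active zone and vesicle protein, the same stretch was long in both lists, 188 nt with F125A and 163 nt with WT, and a second WT cluster of 39 nt held the bases in lower case. The HOXA3 cluster, in a homeobox gene and inside the window at the start of HOXA4, had a WT partner of 110 nt at its 5′ part. The cluster of SLC1A5, a glutamine transporter gene, had none. HNRNPH3, an hnRNP H family gene, had an F125A partner of 142 nt on the 3′ part of its WT cluster. The Rbfox pentamer, searched as GCATG on the strand of the cluster, was in 2 of the 25 pieces, those of DCUN1D4 and LRP8 in the F125A list, and it is in 19.6% of all 35116 windows of 300 bases on the sense strand (29.5% on either strand). A run of 5 T (TTTTT), a letter pattern bound by hnRNP C as its U-rich RNA, was in 7 of the 25, among them HNRNPH3 with 8 overlapping matches, and in 24.9% of windows (39.2% on either strand). ERC1 and RPL32 give a piece in each list. The pieces differ in length and are shorter than the windows, so these shares are not a comparison.

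Long clusters were spread over many genes. In the F125A list 1597 genes held at least 1, of which 1176 held exactly 1 and 31 held 5 or more. In the WT list 1394 genes held at least 1, 1029 exactly 1 and 30 held 5 or more. A long cluster in both lists was found in 634 genes, 39.7% of the F125A genes and 45.5% of the WT genes, in F125A alone in 963 and in WT alone in 760. Shorter clusters in the other list were present in 958 of the 963 F125A genes and in 753 of the 760 WT genes. Of all 11805 genes with a single-gene cluster, 10660 were in the F125A list and 11551 in the WT list. Presence of a cluster of any length in both lists is thus common over all genes and marks no trait of these. A long cluster in either list was found in 2357 of the 11805 genes, with F125A in 1597 and with WT in 1394 of them. The sharing of long clusters in 634 genes was not tested against the numbers of clusters per gene.

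SLIT2, an axon guidance ligand gene, and CDH4, which encodes R-cadherin, headed both lists. SLIT2 had 13 long clusters among 476 with F125A and 12 among 903 with WT. CDH4 had 13 among 203 with F125A (6.40%) and 13 among 356 with WT (3.65%). MATR3, the gene of the LASR subunit Matrin 3, had 13 and 12, but 12 of them in each come from rows that the lists hold in common, in the same order and with equal bounds, so they are no comparison. PRKDC, the DNA-dependent protein kinase gene, had 9 among 182 with F125A and 6 among 267 with WT. TTC28 had 7 among 495 (1.41%) and 9 among 800 (1.125%), and ERC1 7 among 398 and 5 among 619. BAHCC1, a chromatin protein gene, had 7 among 51 and 7 among 78. AUTS2, a neurodevelopmental gene, had 6 among 631 (0.951%) and 5 among 1463 (0.342%). Of all F125A clusters 1.25% were long, and of all WT clusters 0.553%. The shares of AUTS2 were below these, and that of TTC28 with F125A was near.

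Other genes of the top 10 had unequal numbers in the lists. CENPK, a kinetochore protein gene, had 11 long clusters among 66 with F125A (16.7%) and none among 70 with WT, the longest of which had 147 nt. PHIP, whose product binds histones, had 7 among 177 with F125A and none among 271 with WT. Of all WT clusters 0.553% were long, and 3207 of 4378 genes with at least 20 WT clusters had none. NSUN6, an RNA methyltransferase gene, had 4 among 33 with F125A (12.1%) and 11 among 100 with WT (11.0%), so its share was alike and its number of clusters was not. EIPR1, a vesicle trafficking gene, had 6 among 83 with F125A (7.23%) and 8 among 139 with WT (5.755%). The kinase gene PRKG1 had 3 among 408 (0.735%) and 6 among 932 (0.644%). The dynein gene DNAH14 had 4 among 286 (1.40%) and 6 among 484 (1.24%). In EIPR1, PRKG1 and DNAH14 the WT number was thus the higher one and the WT share was not. Of all F125A clusters 1.25% were long.

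**Figure D3:**
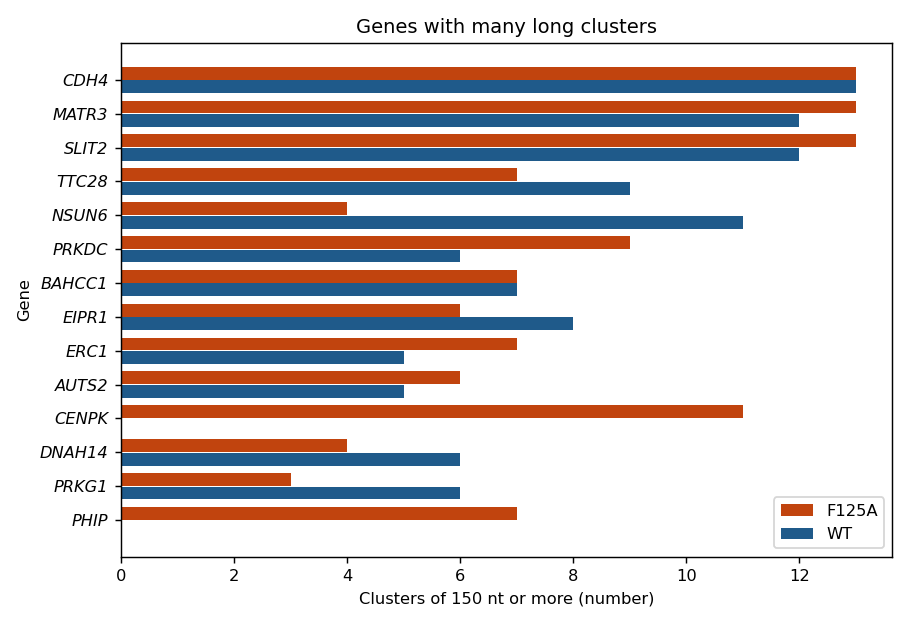
Number of clusters of 150 nt or more (x axis) in 14 genes (y axis) from the 10 with most in either list, F125A bars above WT bars. CDH4 has 13 in each list, and CENPK with 11 and PHIP with 7 have them with F125A alone. Over all genes, 1.25% of F125A clusters and 0.553% of WT clusters are long.

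After CENPK and PHIP, the genes with most long clusters in the F125A list and none in the WT list were CCAR1, a transcription coactivator gene, LARS1, the cytosolic leucyl-tRNA synthetase gene, and XRN2, a nuclear 5′ to 3′ exoribonuclease gene, with 5 each among 56, 87 and 90 F125A clusters. The WT list held 80 clusters of CCAR1, 89 of LARS1 and 149 of XRN2. In the other direction ROBO1, a receptor gene for SLIT ligands, had 5 among 396 WT clusters and PHF2, a histone demethylase gene, 5 among 89. EXOC4, an exocyst subunit gene, CREB5, a transcription factor gene, and BRIP1, a DNA helicase gene, had 4 each among 503, 312 and 302 WT clusters. With F125A these genes had 184 (ROBO1), 39 (PHF2), 185 (EXOC4), 132 (CREB5) and 174 (BRIP1) clusters, none of them long. Over all genes 1.25% of F125A clusters and 0.553% of WT clusters were long. Genes with at least 20 clusters and none long numbered 1613 of 2673 with F125A and 3207 of 4378 with WT. A lack of long clusters in 1 list is therefore common.

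As a share of a gene's clusters, long ones reached 10% or more in 24 of 2673 genes with at least 20 F125A clusters and in 6 of 4378 genes with at least 20 WT clusters. None was long in 1613 and 3207 of these genes. GET4, a gene for a tail-anchored protein targeting factor, had the highest share with F125A, 4 of 22 (18.2%), and 2 of 26 with WT. CLPTM1L had 3 of 20 with F125A and 3 of 28 with WT (10.7%), and DENR, a translation reinitiation factor gene, 3 of 20 and 0 of 23. RAVER2, a gene for an RNA-binding protein, had 3 of 23 and 1 of 68, HGSNAT 3 of 25 and 0 of 26, and FRA10AC1 3 of 26 and 0 of 37. With WT the highest were FZR1, an activator of the anaphase-promoting complex (1 of 10 with F125A and 3 of 21 with WT), and DHRS3, a retinal reductase gene (1 of 11 and 3 of 23). VDAC3 (0 of 7 with F125A and 2 of 20 with WT), ERCC3 (0 of 7 and 2 of 21), EVA1C (1 of 9 and 2 of 21) and SH3BP2 (1 of 16 and 2 of 22) followed on 2 long clusters each.

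Among genes for the complex and for other splicing regulators, long clusters made up 18 of 347 F125A clusters (5.19%) and 13 of 436 WT clusters (2.98%) of the LASR subunit genes, but MATR3 held 13 and 12 of them. HNRNPC had 1 among 103 F125A clusters and 1 among 146 WT clusters, and HNRNPH1 1 among 40 and none among 36. In 34 other splicing regulator genes the share was 1.99% (1.30 to 2.90%) with F125A and 0.953% (0.575 to 1.49%) with WT, above the shares of all clusters with intervals that only just exclude them. PTBP2 had 4 and 4, RBM39 2 and 3, TIAL1, which encodes a U-rich RNA-binding protein, 3 and 1, and CELF2 1 and 2. In the 20 genes listed for Rbfox-regulated exons the share was 1.43% (0.833 to 2.27%) with F125A and 0.520% (0.269 to 0.907%) with WT, near the backgrounds of 1.25% and 0.553%. RBFOX2, the knocked-out gene, had 5 long clusters among 221 with F125A and 2 among 407 with WT, TCF7L2 2 and 1, and ENAH 1 and 2.

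The F125A clusters of ribosomal and ribosome-associated genes were long in 11 of 660 (1.67%, 0.835 to 2.96%) and the WT clusters in 2 of 672 (0.298%, 0.0361 to 1.07%), both intervals holding the background. RPL24 had 2 of 3 with F125A and 0 of 4 with WT, RPL5 1 of 32 and 0 of 26, RPL32 1 of 6 and 1 of 9, and RPL41 1 of 2 and 1 of 3. In listed snoRNA hosts 2 of 239 F125A clusters (0.837%, 0.1015 to 2.99%) and 2 of 245 WT clusters (0.816%, 0.0990 to 2.92%) were long. These intervals hold the background too. NOP58 had 2 and 0, AP1G1 0 and 1 and TAF1D 0 and 1. Very long genes at common fragile sites had 0.893% (0.530 to 1.41%) with F125A and 0.352% (0.202 to 0.572%) with WT. Both intervals hold the shares of all clusters, 1.25% and 0.553%. There IMMP2L had 2 and 4 long clusters and WWOX 4 and 2.

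Gene length went with the share of long clusters in the F125A list. Genes of 10 to 30 kb had 1.50% (1.34 to 1.68%) and genes over 300 kb 0.897% (0.803 to 1.00%). In the WT list the shares were 0.632% (0.547 to 0.727%) and 0.489% (0.443 to 0.538%), and the lowest stood in genes under 10 kb, at 0.385% (0.239 to 0.589%) against 1.43% (1.10 to 1.82%) in the F125A list.

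Inside genes, long clusters were less often near the start than other clusters of the same gene. Within 1 kb of the annotated gene start were 1.91% of long F125A clusters and 1.73% of the remaining ones of their genes, a higher share before stratifying by gene. Stratified by gene, the odds ratio was 0.515 (0.369 to 0.717) with F125A and 0.364 (0.208 to 0.639) with WT. Against remaining clusters of at least 100 nt, the F125A ratio was 0.813 (0.530 to 1.25). The shares over all clusters with a placed gene were 3.36% with F125A and 1.95% with WT. Within 5 kb of the gene end were 7.72% of long and 2.53% of remaining F125A clusters (odds ratio 1.49, 1.21 to 1.83) and 3.53% of long and 1.34% of remaining WT clusters (0.964, 0.723 to 1.29), with 5.22% and 3.78% of all clusters. The F125A end ratio was 1.16 (0.878 to 1.54) against remaining clusters of at least 100 nt. These ratios depend on how clusters are delimited. With clusters closer than 50 nt merged the start ratios turned to 1.65 (1.48 to 1.85) with F125A and 1.44 (1.30 to 1.60) with WT, and the F125A end ratio to 1.00 (0.897 to 1.12).

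Long clusters had close neighbours. Another cluster of the same list lay within 100 nt of 37.7% of long F125A clusters (35.7 to 39.7%) and 31.2% of remaining ones (odds ratio 1.37, 1.24 to 1.50), with 26.0% of all F125A clusters. With WT it was 45.8% of long (43.6 to 48.0%) and 37.3% of remaining ones (1.45, 1.32 to 1.60), with 32.4% of all. The odds ratio was 1.11 (0.993 to 1.25) with F125A and 1.06 (0.945 to 1.18) with WT against remaining clusters of at least 100 nt. A neighbour touched (0 nt) 15.7% of long and 11.7% of remaining F125A clusters, and 17.1% of long and 12.8% of remaining WT clusters.

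Some long clusters stood in runs, defined after the data were seen as long clusters of 1 gene and list less than 2 kb apart. Of the long clusters, 262 with F125A (11.4%) and 243 with WT (12.1%) were in a run of 2 or more. Runs of 3 or more numbered 18 with F125A and 20 with WT. No matching share was computed for the remaining clusters, so a grouping of long clusters was not tested. The run with most F125A clusters was in CENPK (chr5:65555489-65562957), where 8 long clusters lay within 7.47 kb among 25 F125A clusters. The same window held 17 WT clusters, none over 133 nt. The run with most WT clusters was in NSUN6 (chr10:18564324-18572861), where 11 long clusters lay within 8.54 kb among 48 WT clusters, which covered 63.1% of the window. There the F125A list had 9 clusters, 3 of them long.

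In BAHCC1 the runs coincided. The F125A run (chr17:81424483-81426304) held 6 long clusters and the WT run (chr17:81424482-81426547) 7, and within the WT run 95.3% of the bases were in a WT cluster. In EIPR1 the WT run of 5 long clusters (chr2:3294311-3296451) was 92.4% covered, and 13 F125A clusters, 2 of them long, lay in the same window. MATR3 had a run of 6 in each list, within the identical rows. BCL2, an apoptosis regulator gene, had a run of 4 with F125A (chr18:63198240-63199617, 99.0% covered) and of 3 with WT.

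**Figure D4:**
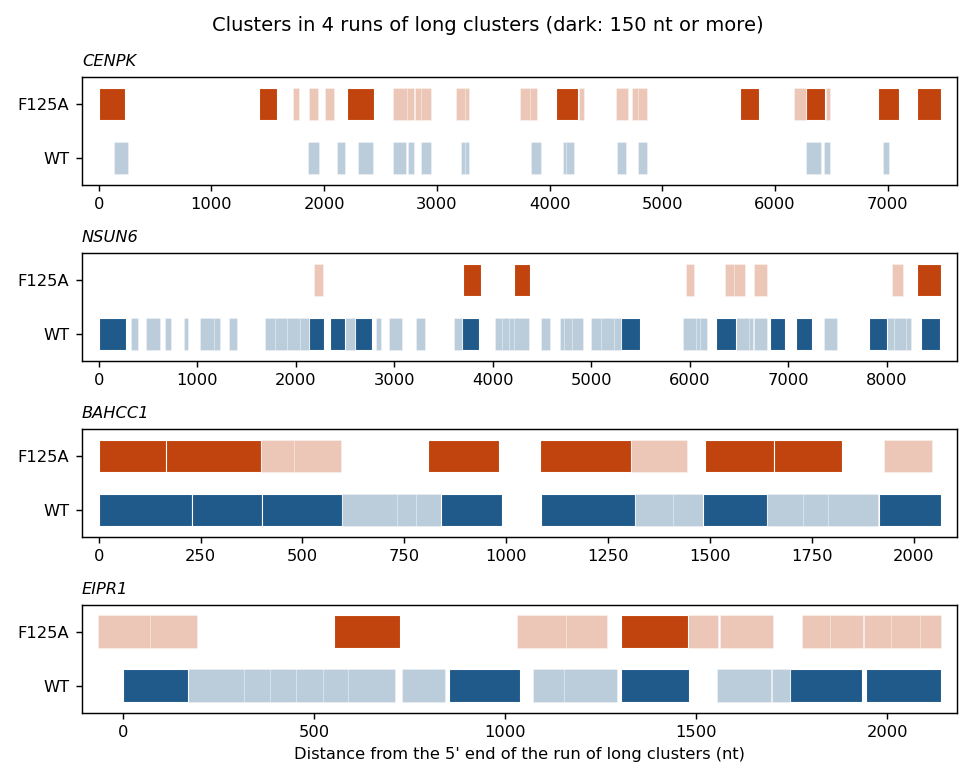
Clusters in 4 runs of long clusters, drawn by distance in nt from the 5′ end of the run (x axis), F125A above WT, dark where a cluster has 150 nt or more and pale where it is shorter. CENPK has 8 long clusters with F125A and none with WT, NSUN6 3 with F125A and 11 with WT, and BAHCC1 and EIPR1 have them in both lists.

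Many runs lay near chromosome ends, a pattern chosen after the values were seen. Of the runs of 3 or more, 11 of 18 with F125A and 13 of 20 with WT were within 5 Mb of an end, taken as position 1 or the end of the last annotated gene. Within that distance lay 17.3% of long and 12.1% of all F125A clusters, and 17.1% of long and 10.45% of all WT clusters. Among these were BAHCC1 on chromosome 17, GET4 on chromosome 7, CLPTM1L on chromosome 5, PHF10 on chromosome 6 and CDH4 on chromosome 20. The share of long clusters followed the same line over all genes. Within 1 Mb of an end 1.91% of F125A clusters (1.58 to 2.28%) and 0.838% of WT clusters (0.669 to 1.04%) were long. Between 1 and 2 Mb it was 2.06% (1.69 to 2.47%) with F125A and 1.05% (0.848 to 1.29%) with WT, between 2 and 5 Mb 1.57% (1.35 to 1.82%) and 0.871% (0.745 to 1.01%), and more than 20 Mb away 1.16% (1.10 to 1.22%) and 0.507% (0.479 to 0.536%). Median lengths of all clusters in the nearest and farthest of these bands were 63 and 64 nt with F125A and 58 and 60 nt with WT, so clusters in general were not longer near the ends. Sequence features of these places were not examined.

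**Figure D5:**
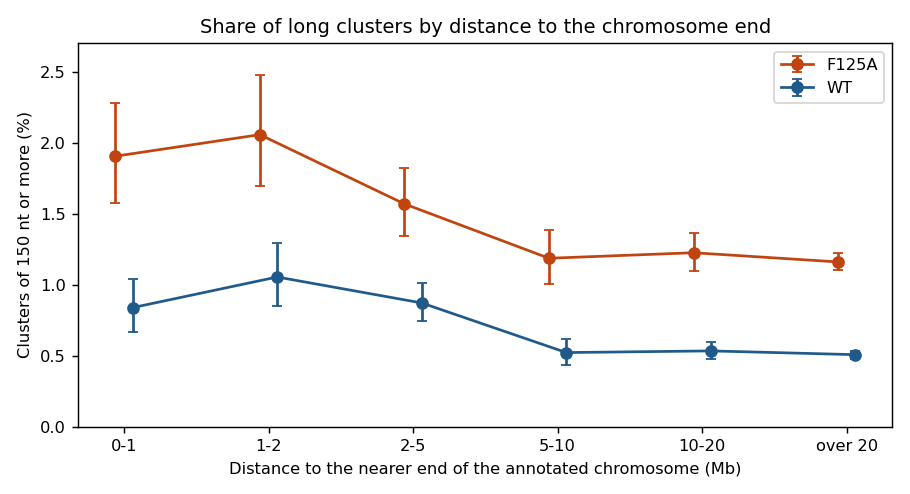
Share of clusters that have 150 nt or more (y axis, percent) by distance in Mb to the nearer end of the annotated chromosome (x axis), with exact 95% intervals as bars. The 3 bands within 5 Mb lie above the 3 bands beyond it in each list.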

How the data were processed

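The members and gene lists were chosen with earlier results of these data known. Per the labels' protocols, RNA of the purified complexes was ligated to a linker, reverse-transcribed with primers that carry a 4-nt identifier, and size-selected. The submitters' processing notes name the build hg38 with the tools STAR and cutadapt. How clusters were called, how libraries were combined and how the control was used is not given in the sources used here. Each deposited list holds positions in nt (chromosome, start, end, gene, strand), with no reads or scores, as the file headers show. File starts count from 0, as read here, and printed ones from 1.

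Repeated rows (4851 F125A, 7029 WT) and clusters naming several genes (3052 in each list) were dropped from the members, while partners and neighbours were sought among all different rows. Gene names were matched to RefSeq's GRCh38.p14 table by symbol (11720) or unique synonym (79), and 6 were unmatched. Small RNA genes were taken from the same table, on the same strand for microRNAs with a known strand and on either strand for the rest. Shares carry exact Clopper-Pearson intervals, and odds ratios Robins-Breslow-Greenland intervals (Python 3.11.15, pandas 2.3.3, scipy 1.17.1). The odds ratio code was tried on simulated clusters with independent outcomes within genes. That trial does not cover clusters that touch or stand in runs. Named were the 10 genes with most long clusters and with the highest share (at least 20 clusters) in each list, the 10 longest clusters, the 5 genes with most in 1 list only, and up to 4 genes per gene list; some genes that this rule takes are not reported here. Genes of the sequences, small RNAs and runs were chosen after their values were seen. No column of per-sample values was left unused.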

Additional observations from a re-analysis of the deposited data

How the results depend on the processing

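Of 68 recomputed values, 43 kept their direction and whether their interval includes 1, or, for shares, stayed within their interval. Shares of long clusters follow the length rule: from 120 nt they were 4.87% with F125A and 2.86% with WT, from 200 nt 0.121% and 0.0407%, and with clusters closer than 50 nt merged 6.39% and 6.50%, so that the F125A share was no longer the higher one. Long clusters over several clusters of the other list came to 18.2% with F125A and 8.47% with WT from 120 nt, 30.04% and 27.7% from 200 nt, and 10.9% and 9.34% after merging. Against remaining clusters of at least 100 nt, odds ratios that then included 1 were 1.09 for a WT partner, 1.11 (F125A) and 1.06 (WT) for a neighbour, 0.813 for the F125A gene start, 1.16 for the F125A gene end and 3.07 for F125A small RNAs. After merging, gene start ratios reversed to 1.65 (F125A) and 1.44 (WT), the F125A gene end ratio turned to 1.00 (0.9998), and the WT gene end ratio of 0.902 excluded 1. From 200 nt, 0.428 (F125A start) and 1.70 (F125A end) included 1, as did 1.59 for the F125A end within 1 kb. The cause was not tested. Some ratios had no value: from 200 nt those for F125A small RNAs and the WT gene start, and for WT small RNAs no setting was given a ratio, as no long WT cluster lay on one. The pentamer over all clusters was not run without the genome sequence. No paired analysis was possible because each list stands for all libraries of its group, and for the same reason no library could be left out. With no read counts, depth behind a cluster is unknown.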

Other observations

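Long clusters stood early in the deposited lists, whose row order is not explained in the sources used here. The first 10% of the rows held 27.1% of the long F125A clusters and 34.5% of the long WT clusters. Median length over all clusters was 76 nt in the first 10% and 57 nt in the last 10% of rows with F125A, and 72 and 48 nt with WT. The partner share followed the order too. In the first 10% of rows, 88.5% of long F125A clusters (85.7 to 90.9%) had their midpoint in a WT cluster, against 96.8% of the remaining clusters of their genes. In the last 50% of rows it was 27.2% (23.0 to 31.7%) against 76.6%. Long F125A clusters had the lower partner share in each of the 5 bands of rows compared.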
